A study of Mus musculus with 12 samples.

Results

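The genes that receive interferon signals and carry them to the nucleus were examined in B16F10 cells, a mouse melanoma line, after depletion of Osgep. They comprised 9 genes chosen by name among the 55487 genes of the count tables, namely 4 receptor chains (Ifnar1, Ifnar2, Ifngr1 and Ifngr2), 3 Janus kinases (Jak1, Jak2 and Tyk2), and the transcription factor genes Stat2 and Irf9. All 9 passed the filter on low counts in every fit. Lentivirus was used to deliver a short hairpin RNA to all cells, either a control (shCtr) or the Osgep hairpin numbered 2 (shOSGEP). The study's methods describe selection with puromycin after infection, and no interferon was named as a treatment of either group. The OSGEP protein is the enzyme within the KEOPS complex and puts the t6A modification beside the anticodon of tRNAs for codons that begin with A (ANN codons). Per the labels of all 12 samples, cells received 10 µg/mL cycloheximide for 5 min before lysis. Total RNA and ribosome-protected fragments (RPF) were sequenced with 3 replicates of each, in 4 groups. The RPF and total RNA libraries with the same hairpin and replicate number were taken as 1 cell sample for ratios. They entered the main fits as separate libraries, without pairing.

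Type I interferons bind the pair IFNAR1 and IFNAR2, which carry TYK2 and JAK1, whereas interferon gamma binds IFNGR1 and IFNGR2, which carry JAK1 and JAK2. The activated kinases phosphorylate STAT proteins, and STAT2 joins IRF9 in a complex that binds the interferon-stimulated response element (ISRE) of target promoters. Receptors and kinases are made by most cells without stimulation, while Stat2 and Irf9 are themselves among the genes that interferon induces.

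Library totals (M, mega) were 46.7 to 81.1 M counts for total RNA and 12.9 to 40.3 M for RPF, and 4.42 to 17.0 M of the RPF counts lay on protein-coding genes. The lowest coding yield was that of shOSGEP replicate 1, with 4.42 M of 28.3 M RPF counts, against 6.57 M of 22.0 M in shCtr replicate 1. The 9 genes together held 196788 total RNA and 27042 RPF counts. Expression is given as counts per M (CPM), and changes as the log2 difference of shOSGEP from shCtr, either fitted over 3 replicates or within 1 replicate number. Osgep itself had 13.9, 15.7 and 15.3 CPM in total RNA of shCtr replicates 1, 2 and 3 and 0.589, 6.92 and 6.78 CPM in shOSGEP. It was lower in every shOSGEP library, and lowest in shOSGEP replicate 1. In RPF, Osgep had 7.72, 7.27 and 4.71 CPM in shCtr and 4.87, 3.81 and 2.36 CPM in shOSGEP, where replicate 1 was the highest of the shOSGEP group and the groups overlapped. The fitted change in total RNA was -1.65 (SE 0.77) and that in RPF was -0.84 (SE 0.39), neither called by edgeR (quasi-likelihood test, adjusted p = 0.975 and 0.9998). The melanocyte markers, a check of the cell type, summed to between 9665 and 16836 CPM in shCtr total RNA and to 2655, 12789 and 11390 CPM in shOSGEP. All 7 were detected, and leukocyte markers summed to at most 0.108 CPM, with Cd3e, Itgam and Ncr1 at 0 in total RNA.

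No gene of the 9 was called at an adjusted p of 0.05 in total RNA, RPF or translational efficiency (RPF relative to total RNA, tested as an interaction), and edgeR called 0 of 14516, 0 of 13529 and 0 of 12560 genes, or 0% in each comparison. At an unadjusted p under 0.05, edgeR gave 259 genes in total RNA, 139 in RPF and 17 in translational efficiency, or 1.78%, 1.03% and 0.135% of those tested. DESeq2 called 8, 1 and 0 genes, none of them among the 9. The values nevertheless fell into distinct patterns. Stat2 and Irf9 were several-fold higher in both readouts in replicate 1. The receptors and kinases had fitted total RNA changes between -0.04 and 0.32. In replicate 1 alone, 6 of these 7 were higher in total RNA, with a median of 0.32. Ifngr2 had fewer footprints in all 3 shOSGEP libraries while its total RNA differed little. The study's methods describe independent infections for its experiments, while the sample labels give only replicate numbers. In these bulk libraries, a change in the number of cells making a transcript and a change in its level per cell cannot be told apart.

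**Figure D1:**
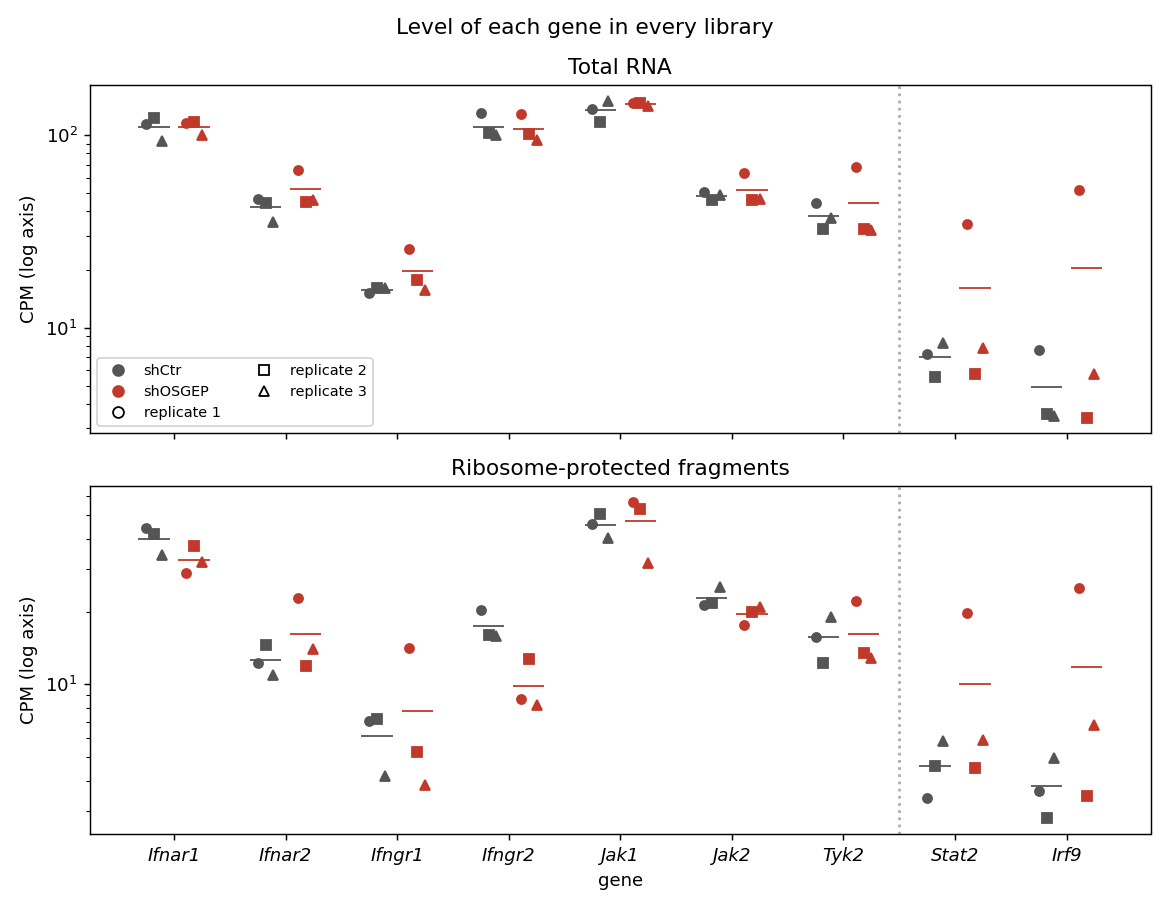
CPM (log axis) of the 9 genes in each of the 12 libraries, total RNA above and RPF below. Grey points are shCtr and red points shOSGEP, shapes mark replicate numbers, horizontal lines are means over 3 replicates, and the dotted line separates the receptors and kinases from Stat2 and Irf9. The shOSGEP replicate 1 points of Stat2 (34.5 CPM) and Irf9 (51.7 CPM) lie far above all other total RNA points of those genes, and the RPF points of Ifngr2 and Jak2 do not overlap between hairpins.

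Levels of different genes were compared per kilobase, over merged exons for total RNA and over coding sequence for RPF. In shCtr total RNA, Ifngr2 had the highest level of the 9, with 29.3 ± 4.37 CPM per kb (SD, n = 3). Jak1 (18.6 ± 2.29) and Ifnar1 (18.4 ± 2.48) followed with overlapping ranges, and then came Ifnar2 (12.6 ± 1.75) and Jak2 (9.62 ± 0.500). The ranges of Ifngr1 (5.53 ± 0.202) and Tyk2 (5.51 ± 0.868) overlapped as well. Stat2 (1.19 ± 0.234) and Irf9 (0.911 ± 0.445) were lowest and overlapped each other, but neither reached the range of any receptor or kinase. Footprints gave a different order at the top. Ifnar1 had 22.7 ± 2.94 CPM per kb in shCtr RPF and overlapped Ifngr2 (17.5 ± 2.55), ahead of Jak1 (13.2 ± 1.54). In shOSGEP RPF, Ifngr2 had 9.91 ± 2.47 CPM per kb and stood behind Ifnar1, Jak1 and Ifnar2. Its range overlapped those of Jak1, Ifnar2, Irf9 and Ifngr1 but not that of Ifnar1. When coding length was used for total RNA as well, 5 of the 9 genes kept their place in the shCtr order, while Ifnar1 passed Jak1 and Irf9 passed Stat2.

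The receptors for type I interferon lie next to Ifngr2 in a cluster on chromosome 16 (91372783 to 91565623, GRCm38), which also contains Il10rb, a receptor chain for interleukin 10. Ifnar1 (ENSMUSG00000022967, chromosome 16, 91485238 to 91507441, plus strand) had 114, 122 and 93.0 CPM in shCtr total RNA and 115, 116 and 99.8 CPM in shOSGEP. The groups overlapped fully and the fitted change was 0.01 (SE 0.15). Its footprints were 44.2, 41.8 and 34.3 CPM in shCtr and 28.8, 37.5 and 32.2 CPM in shOSGEP, lower in all 3 replicate pairs, with overlapping groups. The fitted RPF change was -0.29 (95% interval -0.86 to 0.29). The RPF to total RNA ratio of Ifnar1 was 0.389, 0.344 and 0.368 in shCtr and 0.251, 0.324 and 0.323 in shOSGEP. Every shOSGEP ratio lay below every shCtr ratio, but the fitted change in translational efficiency, -0.31 (SE 0.26), was not called (edgeR, adjusted p = 0.99999). Ifnar2 (ENSMUSG00000022971, chromosome 16, 91372783 to 91405589, plus strand) had 46.3, 44.3 and 35.4 CPM in shCtr total RNA and 65.4, 44.6 and 46.1 CPM in shOSGEP. It was higher in all 3 pairs, by 0.50, 0.01 and 0.38 on the log2 scale, although the groups overlapped, and the fitted change was 0.31 (SE 0.20), or 0.10 without shOSGEP replicate 1. Its footprints were 12.3, 14.6 and 10.98 CPM in shCtr and 22.8, 11.9 and 13.97 CPM in shOSGEP, and replicate 2 went down while the others went up. Counts for Ifnar2 could include reads of Gm21970, an overlapping gene model on the same strand that held at most 2 total RNA and 45 RPF reads per library.

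The receptor for interferon gamma is built from Ifngr1 and Ifngr2 chains, whose changes were not tested against each other. Ifngr1 (ENSMUSG00000020009, chromosome 10, 19591949 to 19610229, plus strand), the ligand-binding chain, had 15.1, 16.03 and 16.1 CPM in shCtr total RNA and 25.4, 17.7 and 15.7 CPM in shOSGEP. Replicates 1 and 2 of shOSGEP lay above the controls, the latter by little, and replicate 3 lay within their range. In RPF it had 7.04, 7.21 and 4.17 CPM in shCtr and 14.2, 5.26 and 3.84 CPM in shOSGEP, with the highest and the lowest value both in shOSGEP. The fitted change of Ifngr1 in total RNA was 0.32 (SE 0.22) and that in RPF was 0.33 (SE 0.54). Without shOSGEP replicate 1 these values were 0.08 and -0.44.

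Ifngr2 (ENSMUSG00000022965, chromosome 16, 91547072 to 91565623, plus strand) encodes the chain that brings JAK2 to the receptor. Its total RNA was 129, 102.5 and 99.2 CPM in shCtr and 128, 101 and 93.5 CPM in shOSGEP, so that each shOSGEP library lay close to the shCtr library of its number, and the fitted change was -0.04 (95% interval -0.47 to 0.39). Its footprints were 20.3, 15.9 and 15.9 CPM in shCtr and 8.67, 12.7 and 8.24 CPM in shOSGEP. The groups did not overlap, and the pairs changed by -1.22, -0.33 and -0.94. The fitted RPF change of Ifngr2 was -0.82 (SE 0.27, 95% interval -1.46 to -0.17), with an unadjusted p of 0.0204 in the edgeR quasi-likelihood test and an adjusted p of 0.9998. It was 1 of 37 genes that were lower in RPF at an unadjusted p under 0.05, against 102 higher. These footprint values rest on 105 to 795 reads per library, the fewest in shOSGEP replicate 1 (95% Poisson interval 85.9 to 127, counting error only).

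The ratio of RPF to total RNA of Ifngr2 was 0.157, 0.156 and 0.161 in shCtr and 0.0680, 0.126 and 0.0881 in shOSGEP. The shCtr mean was 0.158 ± 0.00253 and the shOSGEP mean 0.0941 ± 0.0296 (SD, n = 3). The 3 shCtr ratios lay close together and all 3 shOSGEP ratios lay below them, with the smallest difference in replicate 2. The fitted change in translational efficiency was -0.78 (SE 0.32, 95% interval -1.50 to -0.07), with an unadjusted p of 0.0334 and an adjusted p of 0.99999 (edgeR). A share within each library, which needs no scaling between libraries, was computed as well. Ifngr2 took 12.2%, 9.70% and 10.6% of the RPF reads on the 7 receptors and kinases in shCtr and 5.06%, 8.25% and 6.66% in shOSGEP. In total RNA its share was 24.1%, 21.4% and 20.7% in shCtr and 20.9%, 20.02% and 19.7% in shOSGEP, where replicate 1 of shOSGEP overlapped the controls. In replicate 2, the 95% Wilson intervals of the RPF shares met, at 8.64% to 10.9% in shCtr and 7.52% to 9.05% in shOSGEP. Leaving out any replicate or library left the RPF change between -1.11 and -0.61 and the efficiency change between -1.07 and -0.55.

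**Figure D2:**
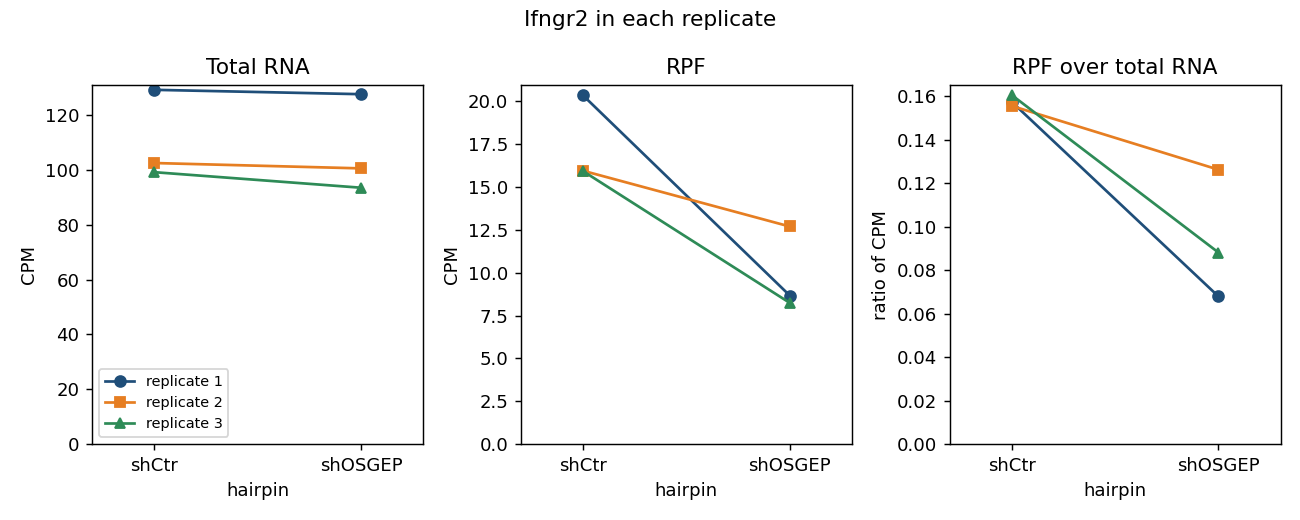
Ifngr2 in the 3 replicate pairs, as CPM in total RNA (left), CPM in RPF (middle) and the ratio of RPF to total RNA CPM (right), with lines joining shCtr and shOSGEP libraries of the same replicate number and all vertical axes starting at 0. Total RNA lines are nearly level, and all 3 lines fall in RPF and in the ratio, least in replicate 2 (0.156 to 0.126).

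The Janus kinases had small fitted changes. Jak1 (ENSMUSG00000028530, chromosome 4, 101152367 to 101265282, minus strand), shared by both receptor types, had 137, 117 and 150 CPM in shCtr total RNA and 147, 145 and 141 CPM in shOSGEP. The shOSGEP values lay inside the shCtr range, and the fitted change was 0.10 (95% interval -0.23 to 0.43). In RPF, Jak1 had 46.0, 50.8 and 40.2 CPM in shCtr and 57.1, 53.0 and 31.7 CPM in shOSGEP, again overlapping, with a fitted change of 0.05 (SE 0.30). Tyk2 (ENSMUSG00000032175, chromosome 9, 21104068 to 21131243, minus strand), the kinase on IFNAR1, had 44.2, 32.5 and 36.8 CPM in shCtr total RNA and 68.1, 32.3 and 32.2 CPM in shOSGEP. The shOSGEP group held the highest and the lowest values, with replicate 1 above all shCtr libraries and replicates 2 and 3 just below them. The fitted change was 0.22 (SE 0.32), and without shOSGEP replicate 1 it was -0.24. Its footprints were 15.7, 12.2 and 19.0 CPM in shCtr and 22.2, 13.4 and 12.9 CPM in shOSGEP, with a fitted change of 0.04 (SE 0.31). The gene overlaps 1700084C06Rik, an antisense gene with at most 5 total RNA and 11 RPF reads in a library, and the use of strand in the counting was not given in the sources used here.

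Jak2 (ENSMUSG00000024789, chromosome 19, 29251828 to 29313080, plus strand), the kinase on IFNGR2, had 50.6, 45.6 and 49.0 CPM in shCtr total RNA and 63.1, 45.9 and 46.4 CPM in shOSGEP. The groups overlapped and the fitted change was 0.10 (SE 0.17). Its footprints were 21.2, 21.7 and 25.2 CPM in shCtr and 17.7, 19.9 and 20.8 CPM in shOSGEP. Every shOSGEP library was below every shCtr library, by a small margin, and the pairs changed by -0.26, -0.12 and -0.27. The fitted RPF change was -0.22 (95% interval -0.75 to 0.31) and the efficiency change -0.33 (SE 0.26), neither called by edgeR (adjusted p = 0.9998 and 0.99999).

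Stat2 and Irf9, the DNA-binding partners of the type I response, had the largest fitted changes of the 9 in total RNA and RPF. Stat2 (ENSMUSG00000040033, chromosome 10, 128270559 to 128292849, plus strand) had 7.28, 5.55 and 8.29 CPM in shCtr total RNA and 34.5, 5.72 and 7.82 CPM in shOSGEP. Only shOSGEP replicate 1 exceeded the shCtr range, and the pairs changed by 2.24, 0.04 and -0.08. The fitted change was 1.19 (SE 0.67, 95% interval -0.41 to 2.78; edgeR, adjusted p = 0.975). In RPF, Stat2 had 3.38, 4.61 and 5.83 CPM in shCtr and 19.8, 4.49 and 5.91 CPM in shOSGEP, and shOSGEP replicate 1 again stood far above the rest. The fitted change was 1.11 (SE 0.60). Its ratio of RPF to total RNA was 0.666 ± 0.186 in shCtr and 0.705 ± 0.114 in shOSGEP (SD, n = 3). The fitted efficiency change was -0.09 (95% interval -2.23 to 2.05).

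Irf9 (ENSMUSG00000002325, chromosome 14, 55603571 to 55610030, plus strand) had 7.67, 3.55 and 3.49 CPM in shCtr total RNA and 51.7, 3.41 and 5.76 CPM in shOSGEP. Replicate 1 was the highest library of both groups. In shOSGEP, replicate 2 had 0.961 times and replicate 3 had 1.65 times the level of the shCtr library of its number. The fitted change was 2.05 (SE 1.02, 95% interval -0.37 to 4.47; edgeR, adjusted p = 0.975). In RPF, Irf9 had 3.61, 2.79 and 4.95 CPM in shCtr and 25.1, 3.47 and 6.76 CPM in shOSGEP, higher in all 3 pairs with changes of 2.78, 0.31 and 0.45, although the groups overlapped. The fitted RPF change was 1.62 (SE 0.72, 95% interval -0.08 to 3.32; edgeR, adjusted p = 0.9998). In replicate 1, the Irf9 change ranked above 98.7% of all genes tested in total RNA and 98.5% in RPF, and that of Stat2 above 97.8% and 98.1%.

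Without replicate 1 of both groups, the fitted changes of Stat2 were -0.04 in total RNA and -0.02 in RPF, and those of Irf9 0.37 and 0.38. Without shOSGEP replicate 1 alone, Irf9 was at -0.11 in total RNA and 0.42 in RPF, and Stat2 at -0.06 in total RNA. The shOSGEP replicate 1 library was also the one with the lowest Osgep RNA and the lowest melanocyte marker sum. Its Osgep footprints did not follow the RNA and were the highest of the shOSGEP group, at 4.87 CPM. The Osgep ratio of RPF to total RNA was 8.27 in shOSGEP replicate 1, against 0.550 and 0.348 in shOSGEP replicates 2 and 3. In total RNA of that replicate, the fibroblast and endothelial markers summed to 24.2 CPM. The sum was 3.96 to 5.51 CPM in shCtr total RNA and 4.86 and 8.19 CPM in the other shOSGEP libraries. Most of the 24.2 CPM was Col1a1 (15.3 CPM) and Pdgfra (8.65 CPM). The endothelial markers stayed near the floor, with Pecam1 at most 0.217 CPM and Cdh5 at 0 in total RNA. The part of these differences in the Stat2 and Irf9 values was not tested.

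The promoter windows of the pair are shown because the complex they form binds the ISRE. The windows came from RefSeq (GRCm38.p6) and span 250 bases before to 50 after each annotated start, with 10 windows for the 9 genes, of which Irf9 has 2. The ISRE was searched as GAAANNGAAA on both strands, and its occurrence is printed in capitals on the gene's strand. Stat2 holds 1 match on the minus strand, at positions -222 to -213 relative to the start. For Irf9 the window nearer the 5′ end of the annotated gene is given, and neither of its windows holds the motif. Both Irf9 windows lie inside the annotated gene, which starts at 55603571, so the sequence before that start was not searched.
Stat2, chr10:128270248-128270547, plus strand: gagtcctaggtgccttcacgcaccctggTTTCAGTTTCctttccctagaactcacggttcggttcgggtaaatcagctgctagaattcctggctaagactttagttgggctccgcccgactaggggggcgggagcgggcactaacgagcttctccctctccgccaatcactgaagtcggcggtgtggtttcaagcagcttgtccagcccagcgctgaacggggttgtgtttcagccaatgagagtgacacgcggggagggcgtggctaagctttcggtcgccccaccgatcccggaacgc
Irf9, chr14:55603735-55604034, plus strand: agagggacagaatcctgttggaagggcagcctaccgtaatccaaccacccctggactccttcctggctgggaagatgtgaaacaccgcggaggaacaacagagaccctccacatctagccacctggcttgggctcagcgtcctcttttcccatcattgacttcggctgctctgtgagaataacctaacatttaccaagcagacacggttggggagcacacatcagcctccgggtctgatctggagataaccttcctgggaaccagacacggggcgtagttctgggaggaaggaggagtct

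The ISRE letters occurred in 3.44% of 32851 mouse promoter windows of 300 bases, in none of the 7 receptor and kinase genes, and in 7 of the 15 type I target genes that had a window. The gamma-activated sequence, through which interferon gamma acts, was searched as TTCNNNGAA, which reads alike on both strands, and occurred in 8.3% of windows. It was present in Ifnar2 (TTCCTGGAA, positions -214 to -206) and Ifnar1 (TTCACGGAA, which spans the start), and in no window of Stat2 or Irf9. These are matches of letters in a window and were not tested for binding.

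**Figure D3:**
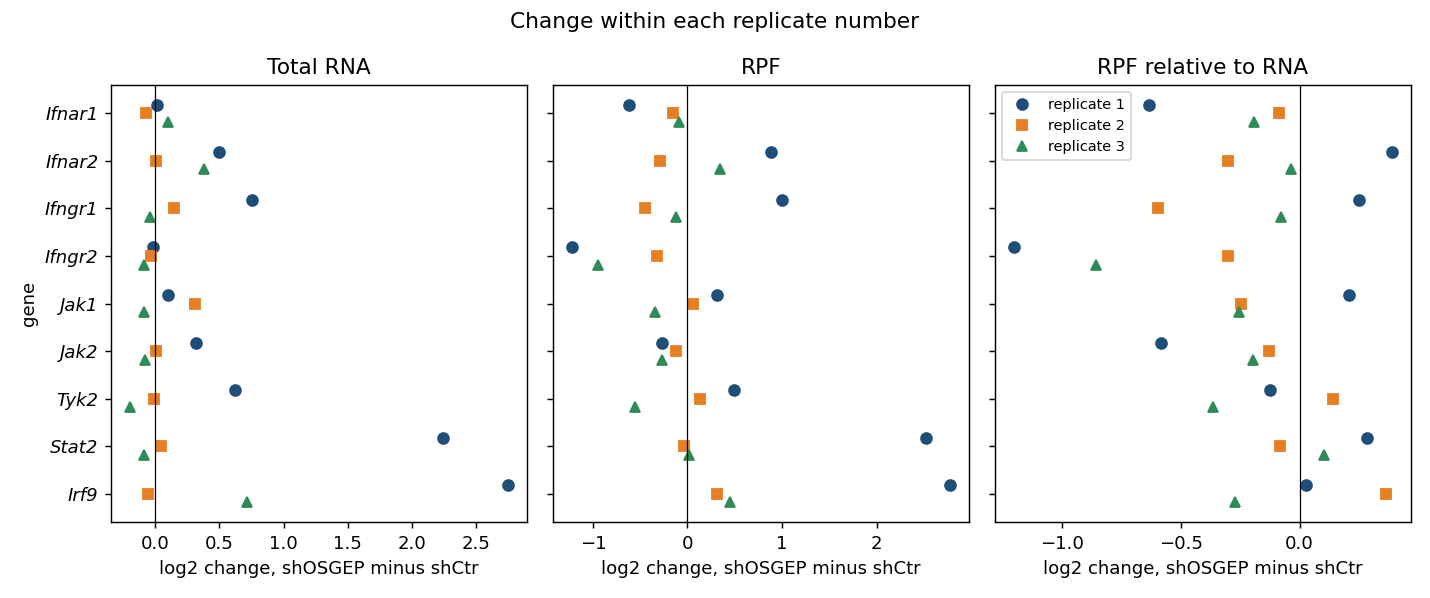
Log2 change of shOSGEP from shCtr within each replicate number for the 9 genes, in total RNA (left), RPF (middle) and RPF relative to total RNA (right), with shapes and colours marking the replicate and the horizontal ranges differing between panels. Stat2 and Irf9 lie between 2.24 and 2.78 in replicate 1 and between -0.08 and 0.72 in the other replicates in total RNA and RPF, and Ifngr2 lies left of 0 in every pair.

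Set side by side, the 7 receptors and kinases had a median total RNA change of 0.10, with 6 higher and 1 lower, while the median of Stat2 and Irf9 was 1.62 and that of all genes tested 0.02. Within replicates 1, 2 and 3, the median was 0.32, 0.01 and -0.08 for receptors and kinases and 2.49, -0.01 and 0.32 for Stat2 and Irf9. The contrast between these classes therefore lay mainly in replicate 1, the pair in which the median absolute change over all genes was also widest, at 0.47 against 0.16 and 0.13. In RPF the medians were 0.04 and 1.37, against 0.05 over all genes, and 4 receptors and kinases were higher and 3 lower. In translational efficiency, the fitted change was below 0 for 6 of the 7 receptors and kinases, with Ifngr1 among them at -0.00022, and for 6331 of the 12560 genes tested, with a median of -0.20 for the receptors and kinases. Stat2 and Irf9 had no steady direction in this ratio. Their fitted median was -0.27, but the ratio of each was higher in 2 of the 3 pairs, and their pair medians were 0.16, 0.14 and -0.08.

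Consistency over replicates was read against all genes. In total RNA, none of the 9 genes had groups that did not overlap, against 7.08% of all genes tested, and 2 changed in the same direction in all pairs (Ifnar2 higher, Ifngr2 lower), against 33.9%. In RPF, 2 of the 9 did not overlap (Ifngr2 and Jak2, both lower), against 5.07%, and 4 kept 1 direction (Irf9 higher, and Ifnar1, Ifngr2 and Jak2 lower), against 30.9%. In translational efficiency, 2 did not overlap (Ifnar1 and Ifngr2, both lower), against 4.34%, and 3 were lower in all pairs (Ifnar1, Ifngr2 and Jak2), against 22.8%. At an unadjusted p under 0.05, edgeR gave 0 of the 9 in total RNA, 1 in RPF and 1 in translational efficiency, which was Ifngr2 both times.

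**Figure D4:**
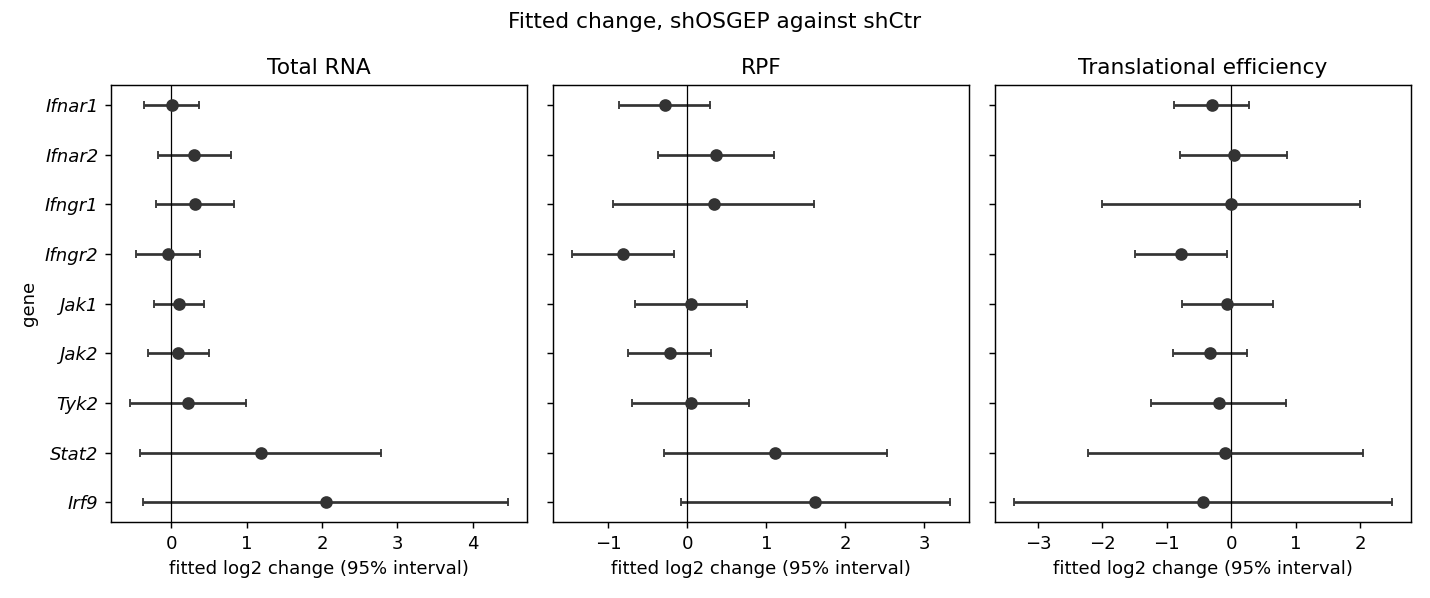
Fitted log2 change of shOSGEP against shCtr with 95% intervals from edgeR for the 9 genes in total RNA (left), RPF (middle) and translational efficiency (right), each over 3 replicates per group and with the horizontal ranges differing between panels. Only the Ifngr2 intervals in RPF (-1.46 to -0.17) and translational efficiency (-1.50 to -0.07) do not include 0, before adjustment over all genes, and those of Stat2 and Irf9 are the widest in total RNA.

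Because shares within a library need no scaling, the part of the 9 genes' reads that fell on Stat2 and Irf9 was also computed. In total RNA it was 2.72%, 1.86% and 2.40% in shCtr and 12.4%, 1.79% and 2.78% in shOSGEP. The shOSGEP share was higher in replicate 1, whereas the Wilson intervals of the hairpins overlapped in replicates 2 and 3. In RPF the share was 4.02%, 4.31% and 6.71% in shCtr and 20.8%, 4.92% and 9.29% in shOSGEP, higher in all 3 pairs, with overlapping intervals in replicate 2. Such a share also moves with the 7 receptors and kinases, whose RPF sums were 167, 164 and 150 CPM in shCtr and 171, 154 and 124 CPM in shOSGEP. Stat2 footprints alone changed by -0.04 and 0.02 in replicates 2 and 3. The balance within the pair also varied, with 1.05, 0.640 and 0.421 Irf9 reads per Stat2 read in shCtr total RNA and 1.497, 0.596 and 0.736 in shOSGEP, ranges that overlap.

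**Figure D5:**
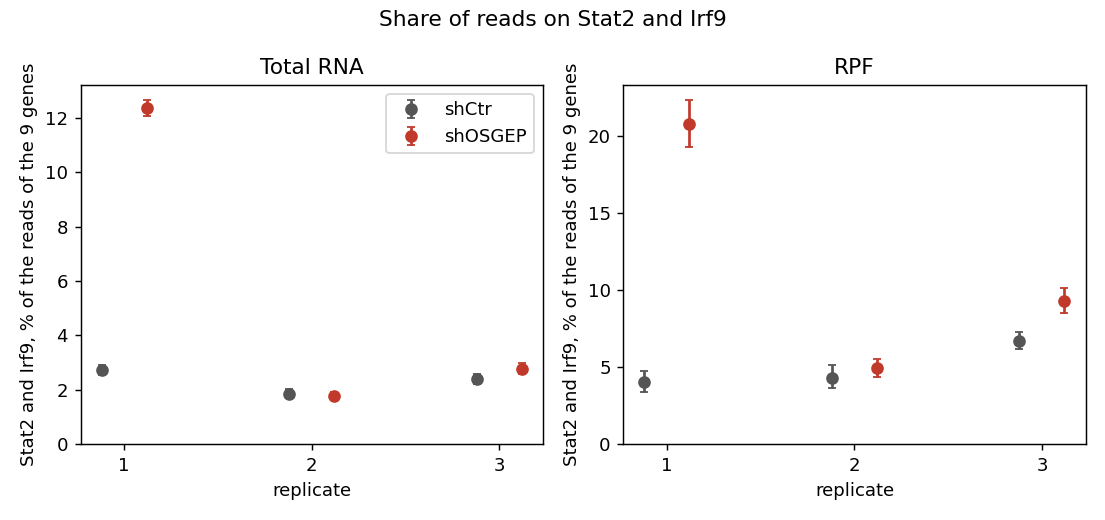
Reads on Stat2 and Irf9 as a percentage of the reads on all 9 genes, by replicate, in total RNA (left) and RPF (right), in grey for shCtr and red for shOSGEP. Bars are 95% Wilson intervals, which cover counting error only. The shOSGEP replicate 1 shares (12.4% and 20.8%) stand apart from all others.

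The share of codons starting with A, which t6A tRNAs read, was computed for each gene. ANN codons made up 32.4% of the coding sequence of Jak2 and 32.0% of Jak1, above 91.3% and 89.6% of the genes tested, whose median was 26.8%. The share was 30.6% in Ifnar1, 29.1% in Ifnar2 and 28.8% in Ifngr1. It was 25.9% in Irf9, 23.1% in Stat2 and 20.9% in Tyk2. Ifngr2, with the largest fitted fall in translational efficiency of the 9, had 22.4%, above 19.4% of genes.

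Other genes of the pathway were described from lists that were chosen with earlier results of these data known. None of the 10 interferon ligand genes had a read in any total RNA library, and in RPF only Ifna2 and Ifne had 1 read each, both in shCtr replicate 2. A count of 0 allows up to 3.69 reads in a library (upper bound of the 95% Poisson interval), so that these ligands were not detectable at this depth. Among 17 type I target genes tested in total RNA, 16 were higher and 1 lower, with a median of 2.28 and none called by edgeR. In the same test, 4 were higher at an unadjusted p under 0.05. Of all 14516 genes tested, 7712 were higher, and 221 were higher at an unadjusted p under 0.05. The type I medians by replicate were 3.24, 0.51 and 0.24. Oasl2, a member of the oligoadenylate synthetase-like family, had a fitted change of 6.06 (SE 2.24), and the ubiquitin-like modifier Isg15 of 3.82 (SE 1.52). Oasl2 was near the floor in shCtr, at 0.108 to 0.425 CPM, and its pairs changed by 6.60, 0.41 and 1.10. The Isg15 pairs changed by 4.59, 1.05 and 0.40. Ifit1, which binds foreign RNA, had 3.06 (SE 1.15) and Xaf1 2.28 (SE 0.87). All 11 type II target genes tested were higher, with a median of 1.29 and medians of 2.25, 0.20 and 0.13 by replicate, of which 2 had an unadjusted p under 0.05. These were the guanylate-binding proteins Gbp2 (3.63, SE 1.25) and Gbp3 (2.98, SE 1.25). Nlrc5, a regulator of antigen presentation genes, had 2.11 (SE 0.94) and the checkpoint ligand Cd274 1.29 (SE 0.62). Each type I and type II target gene named here had its largest pair change in replicate 1.

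Of 13 feedback regulators and phosphatases, 5 were higher and 8 lower in total RNA, with a median of -0.04 and none called by edgeR. Only 1 had an unadjusted p under 0.05, against 1.78% of all genes tested. That gene was Usp18, which holds down signalling at IFNAR2, with a fitted change of 5.30 (SE 2.13) and pair changes of 5.86, 0.70 and 0.06. Socs1, an inhibitor of the Janus kinases, had 1.05 (SE 0.65), again with its largest pair change, 1.78, in replicate 1. Pias1, an inhibitor of STAT proteins, had -0.21 (SE 0.18) and the phosphatase gene Ptpn6 -0.37 (SE 0.33). Of 13 other JAK-STAT genes tested, 7 were higher and 6 lower, with a median of 0.23 and none called by edgeR. Again 1 had an unadjusted p under 0.05, against 1.78% of all genes tested. Lifr, the receptor for leukaemia inhibitory factor, had 1.499 (SE 0.45) and was higher in every shOSGEP library, by 2.71, 0.74 and 0.62 in the pairs. Il6ra had 1.62 (SE 0.75) and Il6st, the shared signalling chain, 0.29 (SE 0.15). Stat3, which those receptors activate, had pair changes of 1.67, 0.00 and 0.14.

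The genes whose total RNA followed Stat2 and Irf9 most closely were found by Pearson correlation of log2 CPM with their mean standardised profile over 6 libraries and 12130 protein-coding genes. They were Anxa7 (r = 0.9996), Trim30a, 1600014C10Rik, Parp9 and Fez2 (r = 0.9986). All genes of a library share its depth and scaling, and 1 library, shOSGEP replicate 1, held most of the variation. Without it the values of r were between 0.982 and 0.996 over 5 libraries. Those 5 libraries were among the ones used to choose the genes, so these values are no check of the choice. Stat2 and Irf9 themselves had r of 0.80 and 0.89 with their profile there. Parp9 belongs to the type I list. Of the receptors and kinases, Jak2 (r = 0.974) and Tyk2 (r = 0.947) had the highest r with the profile and Ifnar1 (r = 0.127) the lowest. Without shOSGEP replicate 1, r was 0.719 for Jak2, 0.648 for Tyk2 and -0.466 for Ifnar1, and Ifngr1 turned from 0.881 to -0.789, the lowest of the 7. For the mean profile of the 7 receptors and kinases, the closest genes were Fam241a (r = 0.999), Arhgef18, Ccdc73, Taf9b and Porcn (r = 0.994).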

How the data were processed

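The authors deposited one table for total RNA and one for RPF of 6 cell samples, each with whole-number counts of reads for every Ensembl gene and no normalisation. Per the labels, RPF were captured with a puromycin analogue, and the submitters' processing notes name FastQC 0.11.9, Trim Galore 0.6.6, cutadapt and STAR. They list both GRCm39 and GRCm38, and the counting step, its strand use and its treatment of multiply mapped reads are not given in the sources used here. The total RNA labels give poly-A RNA as the molecule. Symbols, coordinates and lengths came from GENCODE M21 (GRCm38), which held 55227 of the 55487 gene IDs.

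Quasi-likelihood fits were made with edgeR 4.0.16 (R 4.3.3), in total RNA and in RPF by themselves, with TMM factors and filterByExpr. Translational efficiency was the interaction of assay and hairpin over all 12 libraries, with no term for the cell sample, which only its block alternative held. Adjustment was by Benjamini-Hochberg over all genes tested, with a threshold of 0.05. Log2 CPM used a prior count of 2, and the SE was the absolute log2 change divided by the square root of F. The fits were run on simulated counts with the same set spread for all genes. That run does not measure their power or error in these libraries. Poisson and Wilson intervals cover counting error only, since amplified reads are not independent molecules. Same-numbered libraries deviated together (total RNA r of 0.52, 0.54 and 0.29, RPF r of 0.59, 0.51 and 0.66), so the numbers were taken to pair the samples in an alternative fit with a replicate block. Replicates of a group differed by far more than sampling noise (chi-square per degree of freedom of at least 88.4).

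The genes and lists were chosen with earlier results of these data known. All 9 genes and Osgep are named, with up to 4 genes of each list that had the smallest unadjusted p in total RNA and the 5 genes most like each class. Il10rb, the ligand genes with a read and the cell type markers given singly were named after their values were seen. Alternatives were DESeq2 1.42.0, RLE size factors, other filters, protein-coding genes only, TMM over all libraries, the block, and leaving out libraries. Some genes of the pathway are not reported here.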

Additional observations from a re-analysis of the deposited data

How the results depend on the processing

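No result of the 9 genes passed the adjusted threshold of 0.05 under any of the 15 alternatives for total RNA and RPF or the 16 for translational efficiency, DESeq2 and the replicate block included, where adjusted p lay between 0.119 and 1.00. Of 414 values for the 9 genes, 362 kept their direction and 52 reversed. The replicate block gave 1.13 for Irf9 and 0.71 for Stat2 in total RNA, 1.16 and 0.79 in RPF, and 0.0192 and 0.0921 in translational efficiency (median 0.0556 for the pair), reversing the last; it called 1 gene in total RNA, which is not one of the 9, and changed no other call. DESeq2 called 8 genes in total RNA and 1 in RPF, and 229 genes were called in RPF with no filter on low counts. Without that filter, values near 0 reversed for Ifnar1 in total RNA (-0.0118) and for Jak1 (-0.0200) and Tyk2 (-0.0455) in RPF. In translational efficiency, Ifngr1 reversed to 0.0215 under RLE size factors and 0.0214 under DESeq2, to 0.00962 with at least 10 counts in every library, to 0.0271 with protein-coding genes alone and to 0.0025 with TMM over all libraries. The order of levels by coding length kept 5 of 9 places. The cause of these shifts was not tested.

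Leaving out a library or a replicate gave the following ranges. In total RNA they were -0.11 to 0.10 for Ifnar1, 0.10 to 0.45 for Ifnar2, 0.0464 to 0.45 for Ifngr1, -0.19 to 0.0902 for Ifngr2, -0.0769 to 0.17 for Jak2, -0.24 to 0.40 for Tyk2, -0.0645 to 1.62 for Stat2 and -0.11 to 2.54 for Irf9, with a median for Stat2 and Irf9 of -0.0873 to 2.06. In RPF they were -0.44 to 0.67 for Ifngr1, -0.12 to 0.27 for Jak1, -0.26 to 0.35 for Tyk2 and -0.0206 to 1.59 for Stat2. In translational efficiency they were -0.17 to 0.19 for Ifnar2, -0.51 to 0.26 for Ifngr1, -0.23 to 0.15 for Jak1, -0.30 to 0.22 for Stat2 and -0.97 to 0.53 for Irf9. The median in translational efficiency ranged from -0.31 to -0.0513 for receptors and kinases and from -0.64 to 0.37 for Stat2 and Irf9. The lowest values of Ifnar2, Stat2 and Irf9 in total RNA arose without shOSGEP replicate 1. Depth limits the RPF values most for Stat2 and Irf9, which had 46 to 304 reads per library.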
